A study of Mus musculus with 8 samples.

Results

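Differentiated hormone-sensing cells of the mouse mammary gland were compared between 2 mice after involution (PI) and 2 nulliparous mice (NP). The cells are those that the authors' clustering placed in cluster C3 in the PI libraries and in cluster C4 in the NP libraries, and that passed the authors' quality flags. They numbered 5082 of 25010 cells passing these flags in the whole series of 8 mice, with 971 and 1212 cells in NP replicates 1 and 2 and 412 and 2487 cells in PI replicates 1 and 2. All mice were C57BL/6N females and no transgene or agent was used. NP mice were 8 weeks old, and PI mice had carried a pregnancy and nursed, and were taken on day 11 after natural weaning of their pups (their age is not given in the sources used here). Each library held the EpCAM+ cells of 1 mouse, from which CD31+, CD45+ and Ter119+ cells had been sorted out, and was measured by droplet single-cell RNA sequencing that counts unique molecular identifiers (UMIs). Vaginal smears had placed PI replicate 1 in dioestrus and the other 3 mice in oestrus, so that the phase of the cycle and this 1 mouse cannot be told apart. Any difference in age between the groups cannot be told apart from parity either.

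Hormone-sensing cells are the luminal cells of the mammary duct that carry the receptors for oestrogen, progesterone and prolactin. They seldom divide themselves and pass the hormonal signal on to their neighbours by paracrine factors, among them the EGF receptor ligand amphiregulin, the Wnt ligand WNT4 and RANKL. After weaning, involution removes most of the milk-secreting alveoli, and a ductal tree with hormone-sensing and progenitor cells remains.

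The 300 bases around the start of 3 genes are shown because the results below turn on them. *Areg* (amphiregulin, chr5:91139599-91148432, + strand) and *Btc* (betacellulin, chr5:91357261-91402994, − strand) encode EGF receptor ligands of 1 gene cluster and were both lower in PI, and *Bglap3*, an osteocalcin-related gene (chr3:88368616-88372743, − strand), rose in these cells while its change in luminal progenitors was negative. All are protein-coding genes of the GRCm38 annotation. The sequences are RefSeq promoters of build GRCm38.p6, 250 bases before to 50 bases after the annotated start, written 5′ to 3′ on the strand of the gene. Capitals mark 2 motifs that were searched on both strands, the cAMP response element TGACGTCA and the STAT site TTCNNNGAA. The first occurs in 1.79% and the second in 8.30% of 32851 promoters of this length. *Areg* held the cAMP response element once, from position -61 relative to the start, and no STAT site, *Btc* held neither, and the first of 3 annotated starts of *Bglap3* held a STAT site. These matches of letters are a description, not evidence of binding.
Areg, chr5:91139349-91139648: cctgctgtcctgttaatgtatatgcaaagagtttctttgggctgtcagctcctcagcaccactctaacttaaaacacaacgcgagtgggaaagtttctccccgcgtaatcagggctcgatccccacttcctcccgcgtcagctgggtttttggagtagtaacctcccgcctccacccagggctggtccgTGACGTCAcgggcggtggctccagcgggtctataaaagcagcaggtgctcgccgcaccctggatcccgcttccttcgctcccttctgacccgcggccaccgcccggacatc
Btc, chr5:91402945-91403244: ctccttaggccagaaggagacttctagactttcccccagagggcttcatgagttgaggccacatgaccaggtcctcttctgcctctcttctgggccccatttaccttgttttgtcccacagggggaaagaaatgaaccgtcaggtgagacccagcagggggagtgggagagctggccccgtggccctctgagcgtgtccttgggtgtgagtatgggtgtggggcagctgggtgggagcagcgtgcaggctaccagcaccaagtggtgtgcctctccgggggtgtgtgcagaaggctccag
Bglap3, chr3:88372692-88372991: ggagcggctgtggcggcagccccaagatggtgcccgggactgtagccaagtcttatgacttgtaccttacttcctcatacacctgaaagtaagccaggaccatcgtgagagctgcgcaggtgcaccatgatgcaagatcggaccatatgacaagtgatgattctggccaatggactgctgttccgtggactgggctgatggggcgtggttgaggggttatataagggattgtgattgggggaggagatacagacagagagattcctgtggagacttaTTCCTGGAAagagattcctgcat

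The cells of the 4 mice carried the markers of their type and differed in depth. They held 12667669 and 14508146 UMIs in NP and 3334145 and 15535856 UMIs in PI, with a median of 10163, 10309, 7179 and 5638 UMIs per cell, so PI replicate 1 rests on the fewest UMIs and the NP cells were the deepest. Over 12 marker genes of hormone-sensing cells (*Prlr*, *Pgr*, *Esr1*, *Cited1*, *Areg* and others) the summed level per 1000000 UMIs was 15577 and 14089 in NP and 14197 and 13912 in PI, against 4525 and 4415 in NP and 1426 and 1214 in PI in luminal progenitors of the same mice, and 1 marker (*Tnfsf11*) was at 0 in PI replicate 1. Differentiated hormone-sensing cells made up 59.8% and 71.1% of the luminal cells in NP and 29.2% and 61.0% in PI. The share in PI replicate 1 was below all others, that in PI replicate 2 lay between the NP mice, and luminal progenitors made up 58.4% of luminal cells in the first and 27.0% in the second, against 22.9% and 18.5% in NP. With 2 mice a group an exact permutation test cannot go below p = 0.333 (two-sided), and no test was run on shares. Few cells lay in the other cluster, with 12 and 5 C3 cells in NP and 40 and 88 C4 cells in PI. Because the split into C3 and C4 was made on these same transcripts, the comparison was also run with both clusters together in every mouse.

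Between PI and NP, 1021 genes were higher (8.54% of 11956 genes tested) and 902 were lower (7.54%) by edgeR's quasi-likelihood test on UMIs summed per mouse, at a Benjamini-Hochberg adjusted p of 0.05. The median log2 difference over all genes tested was -0.02, and 408 of the higher and 462 of the lower genes differed by at least 1 on the log2 scale. Both PI mice lay above both NP mice in 28.1% of all genes tested and below both in 31.0%. Of the 1923 called genes 1916 did not overlap between the groups, so a lack of overlap adds little to a call. Of the higher genes 331 and of the lower genes 308 were called in the same direction whichever of the 4 libraries was left out. Without NP replicate 2 the counts were 437 and 429, and without PI replicate 1, among the 3 oestrus mice, 1523 and 1334. In these fits the mouse left alone in its group was assumed to vary like the pair of the other group. With C3 and C4 together 916 genes were higher and 798 lower. Levels below are UMIs per 1000000 UMIs of a sum (CPM), after TMM scaling or, where called unscaled CPM, without it, differences are PI minus NP on the log2 scale with their standard error (SE), and "rose" or "fell" is used only of genes past this test. Sums over several cells cannot tell fewer expressing cells from less RNA per cell. The share of cells with a UMI, given for 5 genes, depends on both and does not separate them either.

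Gene lists are described by the number of tested members that rose and fell. These counts are to be read against the 8.54% of all genes tested that rose and the 7.54% that fell. A count near these shares is not a result about the list. Square brackets give these numbers, the risers first, without 1 library, by DESeq2 or with cells thinned to 2000 UMIs, wherever either number moved by over 1.5 times, with the medians that did so in lists whose median was not near 0. Where a gene list below had 0 calls in a direction, DESeq2 gave 0 in that direction as well. At an unadjusted p of 0.05 in edgeR, the number in that direction was 1 for paracrine genes (higher) and for milk fat genes (lower), and 0 for the milk protein, cholesterol and immune lists (lower) and for the cell division, basal, fibroblast, endothelial, ribosomal and mitochondrial DNA lists (higher). Scaling by total UMIs alone moved the median of all genes to 0.03 and turned 4 slightly negative list medians positive, those of the oestrogen response, transcription factor, immediate early and metallothionein lists.

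**Figure D1:**
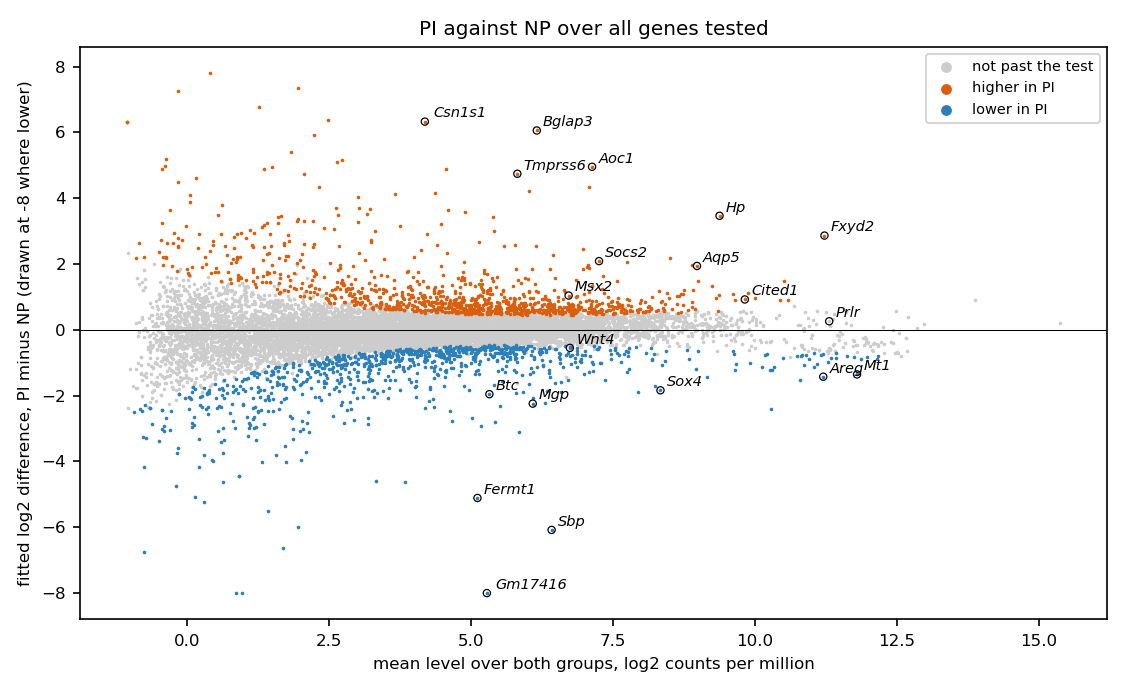
Fitted log2 difference, PI minus NP (vertical axis), against the mean level over both groups in log2 CPM (horizontal axis) for the 11956 genes tested in differentiated hormone-sensing cells. Orange points are the 1021 genes past the test that were higher in PI and blue points the 902 that were lower; circled genes are named in the text, and genes below -8 are drawn at -8.

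Among the main hormone receptors, *Esr1* passed the test narrowly and *Pgr* and *Prlr* did not pass it. *Pgr*, the progesterone receptor, was at 157 and 149 CPM in NP and 129.6 and 207 CPM in PI. *Prlr*, the prolactin receptor, was at 2259 and 2351 CPM in NP and 2379 and 3139.5 CPM in PI. *Pgr* overlapped between the groups, *Prlr* was highest in PI replicate 2, and neither passed the test, with log2 differences of 0.15 (SE 0.20) and 0.26 (SE 0.22). *Esr1*, the oestrogen receptor α, was at 79.7 and 96.1 CPM in NP and 70.4 and 48.8 CPM in PI. Both PI mice were below both NP mice, and *Esr1* fell by 0.59 (SE 0.19, edgeR adjusted p = 0.049), but the call was lost without NP replicate 2 (log2 -0.44, adjusted p = 0.32) and without PI replicate 2 (log2 -0.32, adjusted p = 0.28), as well as with C3 and C4 together (adjusted p = 0.057), by DESeq2 (0.085), with scaling by total UMIs (0.12) and with thinned cells (0.2). Among the 3 oestrus mice, without PI replicate 1, the difference was -0.84. Of 16 receptor genes tested out of 20 listed, 1 rose and 2 fell [0 and 2 without NP replicate 1, 0 and 1 without NP replicate 2, by DESeq2 or with thinned cells, 1 and 1 without PI replicate 2], with a median difference of 0.18. The riser was *Nr3c1*, the glucocorticoid receptor, at 13.2 and 13.1 CPM in NP and 23.1 and 18.2 CPM in PI (log2 0.61, adjusted p = 0.038), whose call held in 1 of 4 fits that left out a library, being lost without NP replicate 1 (log2 0.64, adjusted p = 0.11), NP replicate 2 (log2 0.61, adjusted p = 0.2) or PI replicate 1 (log2 0.48, adjusted p = 0.052). The other one that fell was *Nr2f2*, the orphan receptor COUP-TFII, from 7.30 to 0.882 CPM on average. *Ghr*, *Vdr*, *Insr*, *Igf1r*, *Thra*, *Rara*, *Rarg*, *Rxra*, *Nr3c2* and *Esrra* did not pass the test, with differences from -0.24 (*Vdr*) to 0.51 (*Esrra*), and *Thrb*, *Gper1*, *Nr2f1* and *Rarb* had too few UMIs to be tested.

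Genes listed as oestrogen responses passed the test in both directions. Of 20 oestrogen response genes tested, 3 rose and 3 fell, with a median of -0.05. Over all genes tested 8.54% rose and 7.54% fell, so these small counts are not read as a result about the list. *Greb1*, an oestrogen-induced gene, was at 7.05 and 10.8 CPM in NP and 5.91 and 1.84 CPM in PI. It fell by 1.61 (adjusted p = 0.02), with PI replicate 2 the lowest, and this was lost without NP replicate 2 (log2 -1.13, adjusted p = 0.18) and without PI replicate 2 (log2 -0.59, adjusted p = 0.28), while among the oestrus mice it was -2.27. *Tfap2c*, a transcription factor gene at 5.64 CPM or less, and *Il6st*, the shared receptor subunit of IL-6 family cytokines, fell by 2.12 (by 3.04 without PI replicate 2) and 0.78. *Ccnd1*, cyclin D1, was at 49.3 and 61.3 CPM in NP and 89.3 and 120.4 CPM in PI and rose by 0.94 (adjusted p = 0.004). *Cited1*, a coactivator of the oestrogen receptor, was at 723 and 525 CPM in NP and 1455 and 911 CPM in PI. It was highest in PI replicate 1, with no overlap between the groups, and rose by 0.92 (adjusted p = 0.023), although not without NP replicate 2 (log2 0.71, adjusted p = 0.14) or without PI replicate 1 (log2 0.55, adjusted p = 0.055). The third riser was *Stc2*, stanniocalcin, with a log2 difference of 0.77.

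More genes listed as paracrine signals fell than rose in PI. The list also holds *Id4*, a transcription regulator gene whose product is not itself a secreted signal. Of 13 paracrine genes tested out of 19 listed, 7 fell and 0 rose (8 and 1 without PI replicate 1), with a median difference of -0.91 against -0.02 over all genes, and 6 fell when C3 and C4 were summed in every mouse, 5 with DESeq2 or scaling by total UMIs, and 4 with thinned cells. *Areg*, whose product is the main EGF receptor ligand by which oestrogen drives ductal growth, was at 3191 and 3676 CPM in NP and 928 and 1626 CPM in PI. Every PI mouse was below every NP mouse and PI replicate 1 was the lowest. *Areg* fell by 1.42 (SE 0.27, adjusted p = 0.0035), with a difference of -1.07 among the oestrus mice alone. *Btc*, which lies in the same gene cluster and whose sequence is shown above, was at 65.7 and 63.8 CPM in NP and 9.29 and 20.9 CPM in PI. The groups did not overlap and PI replicate 1 was again the lowest. *Btc* fell by 1.96 (SE 0.24, adjusted p = 0.00019), and the difference was -2.80 without PI replicate 2 and -1.62 without PI replicate 1. *Epgn*, epigen, a further ligand of the cluster, is outside the paracrine list and was chosen after its values were seen. It was at 27.6 and 29.0 CPM in NP and 9.86 and 21.3 CPM in PI and missed the threshold (log2 -0.72, adjusted p = 0.058). *Ereg* was near 0 with 11 UMIs in all.

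Of the Wnt ligands, *Wnt4*, *Wnt7b* and *Wnt5b* fell and *Wnt5a* did not pass the test. *Wnt4*, which mediates the action of progesterone on neighbouring cells, was at 113 and 140.4 CPM in NP and 84.8 and 88.3 CPM in PI, and *Wnt7b* at 83.8 and 114 CPM in NP and 48.7 and 55.9 CPM in PI. Both were lower in each PI mouse. *Wnt4* fell by 0.55 (adjusted p = 0.035) and *Wnt7b* by 0.91 (adjusted p = 0.0044), and both calls were lost without NP replicate 2, the mouse with the higher level (log2 -0.39, adjusted p = 0.39 for *Wnt4* and log2 -0.67, adjusted p = 0.055 for *Wnt7b*). *Wnt4* also missed the threshold when libraries were scaled by total UMIs alone (adjusted p = 0.074). *Wnt5a* was at 104 and 109 CPM in NP and 74.4 and 133 CPM in PI, with the NP mice between the PI mice. *Wnt5b* and *Id4*, at under 10 CPM, fell by 1.5 and 1.94, and each call was lost without NP replicate 1 (log2 -0.82, adjusted p = 0.43 and log2 -1.04, adjusted p = 0.56) and without PI replicate 2 (log2 -1.30, adjusted p = 0.094 and log2 -1.56, adjusted p = 0.24). *Tnfsf11*, which encodes RANKL, had 33 and 24 UMIs in NP and 0 and 1 in PI and lay near the detection limit, so that its fitted difference is not given. *Hbegf*, *Tgfa*, *Nrg1* and *Cxcl12* did not pass the test, and *Ihh*, *Rspo1*, *Fgf10*, *Pthlh* and *Adamts18* were not tested for want of UMIs, the last with 0 UMIs in all 4 mice.

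**Figure D2:**
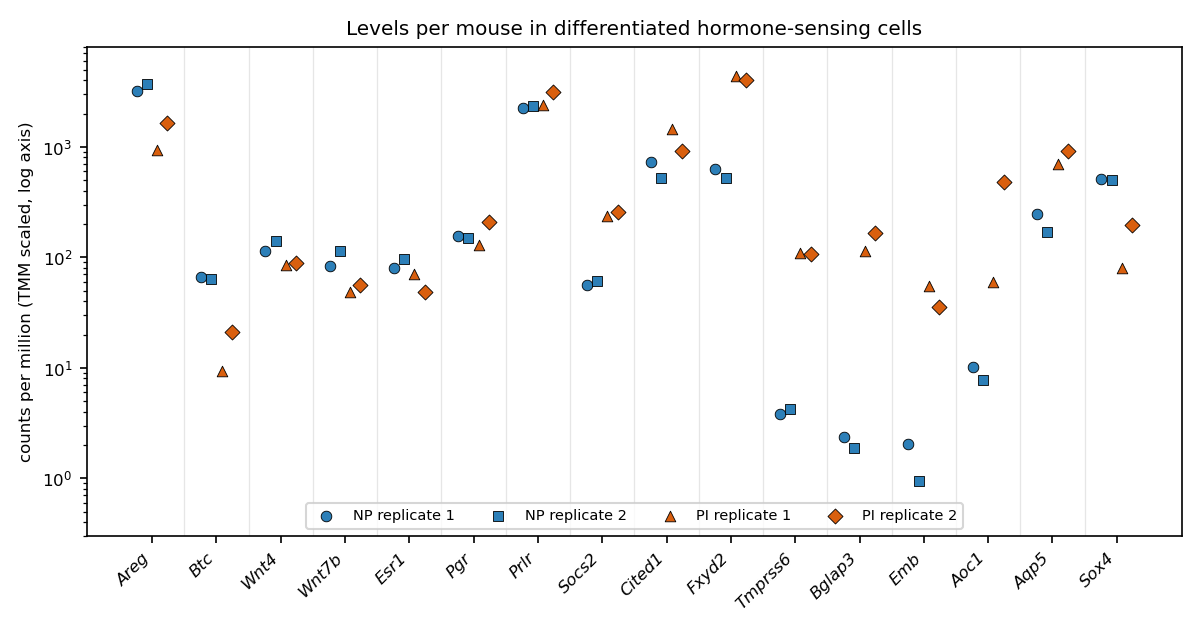
Level of 16 genes in each of the 4 mice, in CPM on a log axis; circles and squares are NP replicates 1 and 2, triangles and diamonds PI replicates 1 and 2. *Areg*, *Btc*, *Wnt4*, *Wnt7b*, *Esr1* and *Sox4* lie lower in both PI mice, *Pgr* overlaps, and *Socs2*, *Fxyd2*, *Tmprss6*, *Bglap3*, *Emb*, *Aoc1* and *Aqp5* lie higher in both, with *Aoc1* at 59.4 in PI replicate 1 and 482 in PI replicate 2.

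Downstream of prolactin, 1 feedback gene stood out. *Socs2*, a suppressor of cytokine signalling that STAT5 induces, was at 55.7 and 60.5 CPM in NP and 237 and 256 CPM in PI. The mice of each group lay close together and the groups did not overlap. *Socs2* rose by 2.09 (SE 0.16, adjusted p = 4.9e-06), and by 2.03 to 2.15 over the 4 fits that left out a library. *Elf5*, a transcription factor that works with STAT5, rose by 1.26 (adjusted p = 0.0097) at no more than 7.55 CPM, and its call was lost without NP replicate 2 (log2 1.15, adjusted p = 0.12) or PI replicate 2 (log2 0.97, adjusted p = 0.13). *Gab1*, an adaptor of receptor tyrosine kinases, fell by 0.80. These were the only members of the prolactin and JAK-STAT5 list past the test among 16 tested (2 rose and 1 fell [2 and 2 without NP replicate 1, 1 and 1 without NP replicate 2 or by DESeq2, 1 and 2 without PI replicate 2], median -0.12).

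The share of cells with a UMI differed between the groups for *Areg* and *Socs2*. With every cell thinned to 2000 UMIs, which left out no cell, an *Areg* UMI was found in 91.1% (89.2 to 92.9) and 90.6% (88.8 to 92.2) of cells in NP and 50.7% (45.8 to 55.7) and 64.5% (62.6 to 66.4) in PI. A *Socs2* UMI was found in 9.37% (7.61 to 11.4) and 10.6% (8.89 to 12.4) of cells in NP and 38.3% (33.6 to 43.2) and 39.0% (37.1 to 41.0) in PI. The PI mice were alike for *Socs2*, PI replicate 1 was the lower for *Areg*, and neither gene's share overlapped between the groups. In luminal progenitors of the same mice a *Socs2* UMI was found in 6.72% to 8.54% of thinned cells, and an *Areg* UMI in 20.7% and 23.7% in NP and 2.06% and 4.0% in PI, the background against which these shares are read. Without thinning the shares in NP replicates 1 and 2 and PI replicates 1 and 2 were 97.6%, 98.3%, 65.5% and 77.5% for *Areg* and 43.7%, 42.4%, 75.7% and 71.4% for *Socs2*. Intervals are exact binomial at 95% and cover counting error only.

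**Figure D3:**
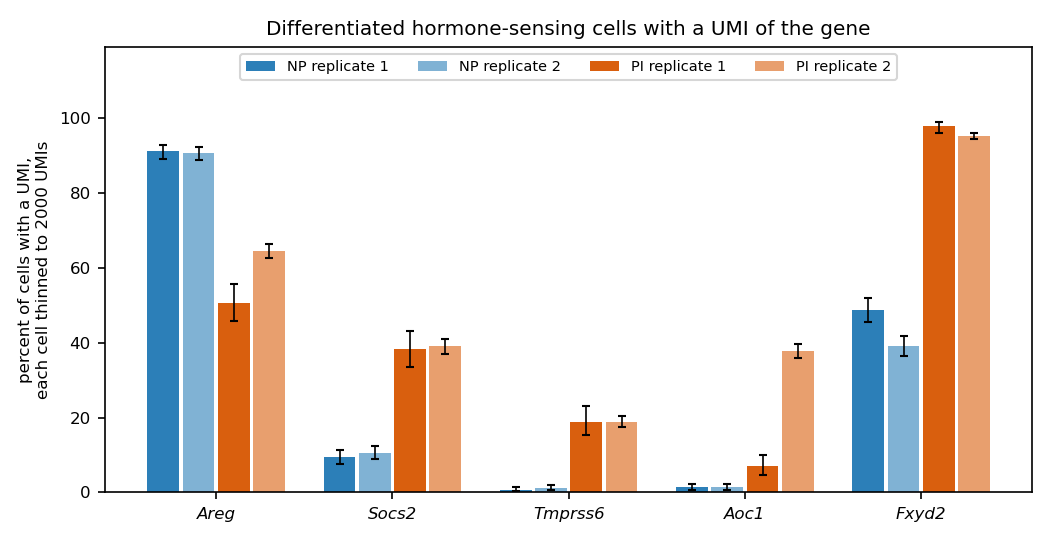
Percent of differentiated hormone-sensing cells with at least 1 UMI of 5 genes after each cell was thinned to 2000 UMIs, per mouse, with exact 95% binomial intervals as error bars. *Areg* is found in fewer cells of both PI mice and the other 4 genes in more, and *Aoc1* differs between PI replicate 1 (7.04%) and PI replicate 2 (37.8%).

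The 15 largest rises with at least 20 CPM were chosen to have no overlap between the groups. Of these, *Tmprss6*, matriptase-2, a membrane protease known from hepatic iron control, was at 3.84 and 4.22 CPM in NP and 109.6 and 107 CPM in PI. The PI mice were alike and about equally far above both NP mice. It rose by 4.74 (SE 0.18, adjusted p = 1.9e-08). A *Tmprss6* UMI was found in 0.721% (0.290 to 1.48) and 1.16% (0.633 to 1.93) of cells in NP and 18.9% (15.3 to 23.1) and 18.9% (17.4 to 20.5) in PI, against 0.182% to 0.538% of luminal progenitors (thinned), and unthinned in 4.84%, 4.46%, 54.9% and 41.7% of the hormone-sensing cells. *Bglap3* was at 2.35 and 1.89 CPM in NP and 115 and 166 CPM in PI. It rose by 6.06 (SE 0.25, adjusted p = 2.8e-08). Its close neighbours and paralogues *Bglap* and *Bglap2* had at most 1 UMI in each mouse, although reads shared by these copies could be assigned to either. *Emb*, embigin, a partner of monocarboxylate transporters, was at 2.04 and 0.947 CPM in NP and 54.9 and 35.8 CPM in PI and rose by 4.89 (SE 0.31, adjusted p = 8.6e-07), or by 5.56 without NP replicate 1.

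Further rises were *Hepacam2* (log2 4.17), *Epb41l3*, a membrane skeleton protein (4.13), *Pcolce*, an enhancer of procollagen processing (3.21), *Tmem116* (3.16), *Sv2c*, a vesicle glycoprotein (3.64), and *Apof*, apolipoprotein F (3.43), each with adjusted p of 8.1e-06 or less. *Hp*, the haemoglobin-binding acute phase protein haptoglobin, was at 99.9 and 121 CPM in NP and 885 and 1548 CPM in PI. It rose by 3.46 (SE 0.27, adjusted p = 5.4e-06). Outside the rule and chosen after its values were seen, *Fxyd2*, a regulator of the sodium pump, was at 633 and 522 CPM in NP and 4379 and 4026 CPM in PI. It rose by 2.86 (SE 0.23, adjusted p = 8.1e-06) and by 2.79 with C3 and C4 together. A *Fxyd2* UMI was found in 48.7% (45.5 to 51.9) and 39.1% (36.3 to 41.9) of cells in NP and 97.8% (95.9 to 99.0) and 95.3% (94.3 to 96.1) in PI after thinning, against 3.76% to 7.36% of luminal progenitors. In unscaled CPM, *Fxyd2* stood at 1837 and 2139 in the 12 and 5 C3 cells of NP and at 1749 and 1390.3 in the 40 and 88 C4 cells of PI, so that C3 cells held more than C4 cells within each stage and PI cells more than NP cells within each cluster. *Aqp5*, a water channel, was at 249 and 169 CPM in NP and 692 and 907 CPM in PI, and *Slc5a5*, the iodide transporter known from the lactating gland, at 90.8 and 76.7 CPM in NP and 283 and 409.6 CPM in PI. Both were chosen after their values were seen and rose by 1.94 and 2.05 (adjusted p = 0.00011 and 2.7e-05).

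Some rises were unequal in the 2 PI mice. *Aoc1*, diamine oxidase, which degrades histamine and putrescine, was at 10.1 and 7.72 CPM in NP and 59.4 and 482 CPM in PI. It rose by 4.95 (SE 0.69, adjusted p = 0.00049), by 5.77 among the oestrus mice and by 2.74 without PI replicate 2. An *Aoc1* UMI was found in 1.34% (0.715 to 2.28) and 1.32% (0.756 to 2.13) of cells in NP and 7.04% (4.76 to 9.95) and 37.8% (35.9 to 39.7) in PI, against 0% and 0.316% in NP and 0.121% and 0.545% in PI of luminal progenitors, and in 7.62%, 5.12%, 16.5% and 53.3% of unthinned hormone-sensing cells. *Pcp4*, a calmodulin regulator (16.5 and 9.10 CPM in NP and 97.7 and 414 CPM in PI), and *Wfdc12* (3.13 and 10.3 CPM in NP and 48.7 and 195 CPM in PI), a protease inhibitor gene, were also higher in PI replicate 2 than in PI replicate 1, with rises of 4.35 and 4.22. Without PI replicate 2 they were 2.94 and 2.85, and without PI replicate 1 they were 5.03 and 4.86. *Wfdc12* also stood at 3.62 without NP replicate 1 and 5.31 without NP replicate 2. *C1s1*, a complement protease, was higher in PI replicate 1 (3.99 and 4.44 CPM in NP and 86.2 and 23.8 CPM in PI), with a rise of 3.59, 4.35 without PI replicate 2 and 2.50 without PI replicate 1. Whether the phase of the cycle had a part in these differences between the PI mice was not tested.

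Among the 15 largest falls, *Gm17416* (chr2:152569338-152569538, + strand) and *Sbp*, spermine binding protein, came close to absence. *Gm17416* had 1249 and 783 UMIs in NP and 0 in both PI mice, which, with a floor of 3 UMIs over the PI group, is at least 470.3-fold lower in unscaled CPM. *Sbp* was at 160.5 and 178 CPM in NP and 0 and 3.28 CPM in PI, and fell by 6.08 (adjusted p = 8.6e-07), or fell by 5.67 without PI replicate 1, while without PI replicate 2 the PI group was at 0. *Fermt1*, kindlin-1, an activator of integrins, was at 62.1 and 70.7 CPM in NP and 3.94 and 1.31 CPM in PI. It fell by 5.11 (SE 0.30, adjusted p = 6.1e-07), with a difference of -4.07 without PI replicate 2. *R3hdml* was at 108 and 99.6 CPM in NP and 6.2 and 14.9 CPM in PI and fell by 3.12, with a difference of -4.06 without PI replicate 2. *Mgp*, matrix Gla protein, was at 102 and 123 CPM in NP and 21.4 and 25.2 CPM in PI and fell by 2.24 (SE 0.17, adjusted p = 5.4e-06).

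*Edn1*, the vasoconstrictor peptide endothelin-1, and *Nrg4*, an ERBB4 ligand, were at 40.0 and 23.5 CPM in NP and 1.97 and 7.68 CPM in PI and at 24.4 and 45.2 CPM in NP and 3.10 and 8.47 CPM in PI. The first fell by 2.39 and the second fell by 2.34, with differences of -4.0 and -3.49 without PI replicate 2. *Cav1*, caveolin-1, fell by 2.31, *Wfdc18* fell by 2.80, and *Aldh1a3*, a retinaldehyde dehydrogenase of progenitors, by 4.62 from 27.5 to 0.905 CPM on average (-3.85 without NP replicate 1 and -5.57 without PI replicate 2). In unscaled CPM, *Aldh1a3* in NP stood at 39.4 and 15 in these cells, 157 and 57.2 in basal, 25.5 and 30.6 in non-epithelial and 2035 and 1759 in luminal progenitor cells. *Wfdc18* stood at 97.7 and 49.8, 482 and 102, 51.0 and 163 and 4454 and 5639.5 in the same order. Both were thus lower in the hormone-sensing cells than in basal cells of the same NP mice. Against non-epithelial cells both were higher in NP replicate 1 and lower in NP replicate 2. In the comparison of cell types below, *Aldh1a3* changed by -1.80 in hormone-sensing progenitors and -2.40 in luminal progenitors, and *Wfdc18* by -0.41 and -0.96. The part of RNA from other cells in these falls was not tested. *Acta2*, *Krt17* and *Tpm2* are basal markers and are given with them below. *Nme2*, which has a similar, read-through neighbour in the genome, fell by 2.93 (4.39 without PI replicate 2), and reads of such neighbours could be split by the counting. *Sox4*, a transcription factor gene chosen after its values were seen, was at 509 and 503 CPM in NP and 80.3 and 198 CPM in PI and fell by 1.84 (adjusted p = 0.0015), with a difference of -2.66 without PI replicate 2. *Calca*, calcitonin and its gene-related peptide, was at 129.5 and 45.9 CPM in NP and 0.282 and 48.0 CPM in PI. It was near 0 in the dioestrus mouse alone, the groups overlapped, and it did not pass the test (log2 -1.61, adjusted p = 0.14). It passed in each of the 4 fits that left out a library, at -0.72 and -2.23 without NP replicates 1 and 2 (adjusted p = 0.026 and 5.7e-05) and at -0.86 without PI replicate 1 (adjusted p = 3.3e-05). Without PI replicate 2 the PI group held 1 UMI (adjusted p = 7.0e-09). It also passed with thinned cells (adjusted p = 0.03).

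Of 22 transcription factors of the hormone-sensing lineage tested, 3 rose and 5 fell [1 and 1 without NP replicate 2, 3 and 3 without PI replicate 2, 1 and 4 by DESeq2], with a median of -0.04. *Msx2*, a homeobox factor, was at 71.4 and 66.0 CPM in NP and 140.0 and 143 CPM in PI and rose by 1.04 (SE 0.15, adjusted p = 0.00057). *Tox2*, an HMG box factor, was at 66.4 and 74.6 CPM in NP and 18 and 28.1 CPM in PI and fell by 1.54 (SE 0.19, adjusted p = 0.00019). Neither gene overlapped between the groups. *Cited1* and *Elf5* were the other risers, and *Hes1*, *Bhlhe41*, *Sox9* and *Esr1* the other ones that fell, the first 3 by 0.78, 0.73 and 0.65. The study places *Elf5* in the secretory lineage, so its rise is not read as that of a hormone-sensing factor.

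To see which changes were shared with other luminal cells of the same mice, the change from NP to PI was tested for a difference between cell types over 12 sums (3 cell types of 4 mice, with the mouse as a term). Against luminal progenitors, 1179 genes changed more positively in differentiated hormone-sensing cells (10.0% of 11748 tested) and 1269 more negatively (10.8%). Against hormone-sensing progenitors the numbers were 144 (1.23%) and 352 (3.00%). With libraries scaled by total UMIs alone the numbers against luminal progenitors were 1655 and 891, so that the balance of directions there depends on the scaling. Changes in this fit are means over the mice of a stage and can differ from the values above, among the named genes by over 1 on the log2 scale for *Sbp*, *Calca*, *Fabp4* and *Col3a1*.

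Several of the largest rises differed from the change in luminal progenitors. *Bglap3* changed by 6.07 in differentiated hormone-sensing cells, 1.47 in hormone-sensing progenitors and -1.46 in luminal progenitors (difference from the latter 7.52, SE 0.24, adjusted p = 9.3e-15). In unscaled CPM, it went from 2.37 and 1.79 to 122 and 163 in the hormone-sensing cells, and from 100.5 and 112 to 38.0 and 34.0 in luminal progenitors. *Bglap3* was thus higher in luminal progenitors in NP and higher in differentiated hormone-sensing cells in PI. *Epb41l3* (4.15, 1.21 and -3.41 in that order of cell types), *Chst1*, a sulphotransferase (5.05, -0.19 and -2.09), whose rise in hormone-sensing cells was 4.4 without PI replicate 1 and 5.82 without PI replicate 2, and *Car8*, a carbonic anhydrase-related protein (2.70, 1.22 and -2.35), had positive changes in differentiated hormone-sensing cells and negative ones in luminal progenitors, with adjusted p of 4.7e-09 or less for the difference from luminal progenitors. *Emb*, *Tmprss6* and *Hepacam2* had fitted changes of 3.93, 4.23 and 3.67 in hormone-sensing progenitors, where PI was not tested against NP, and these did not differ by the test from those in differentiated cells (adjusted p = 0.34, 0.53 and 0.62), while they differed from luminal progenitors by 5.08, 3.61 and 3.81 (adjusted p = 4.2e-05, 0.0046 and 0.00079). *Socs2* changed by 2.11, 1.31 and 0.26, more in differentiated cells than in hormone-sensing progenitors (adjusted p = 0.0019) and than in luminal progenitors (adjusted p = 7.5e-08). *Slc38a1*, an amino acid transporter, changed by -0.21 in differentiated hormone-sensing cells and by -4.95 in luminal progenitors (adjusted p = 1.7e-10).

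**Figure D4:**
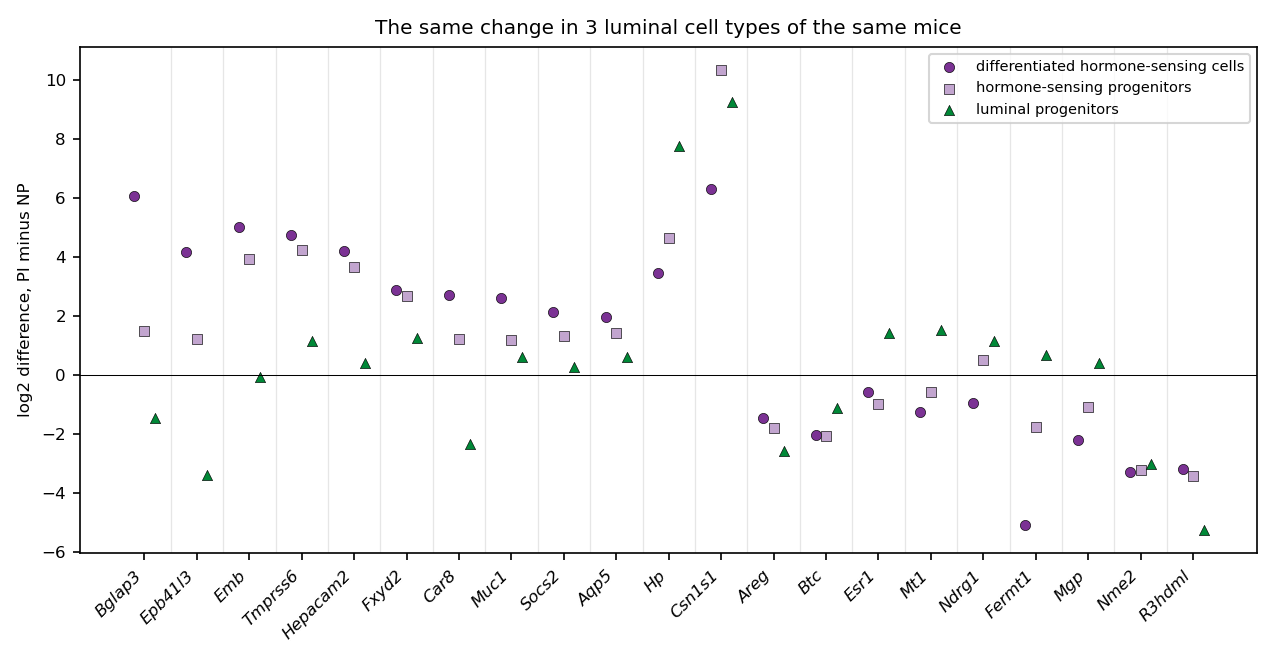
Fitted log2 difference, PI minus NP, of 21 genes in differentiated hormone-sensing cells (circles), hormone-sensing progenitors (squares) and luminal progenitors (triangles) of the same 4 mice. *Bglap3*, *Epb41l3* and *Car8* lie above 0 in hormone-sensing cells and below 0 in luminal progenitors, *Esr1*, *Mt1*, *Fermt1* and *Mgp* lie the other way round, and *Areg*, *Btc*, *Nme2* and *R3hdml* lie below 0 in all 3.

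The changes of *Areg* and *Btc* were negative in all 3 cell types. *Areg* changed by -1.46, -1.80 and -2.60 in the 3 cell types, less in differentiated cells than in luminal progenitors (difference 1.14, adjusted p = 6.4e-06) at a far lower level in the latter (154 and 168 unscaled CPM in NP, 21.5 and 29.1 in PI), and *Btc* by -2.05, -2.08 and -1.13. *Esr1* changed by -0.58 in differentiated cells and by 1.42 in luminal progenitors, and the difference of -2.0 passed the test (SE 0.27, adjusted p = 2.1e-05). *Fermt1* and *Mgp* changed by -5.11 and -2.23 in differentiated cells and by 0.67 and 0.40 in luminal progenitors (adjusted p = 2.4e-09 and 5.7e-08). *Fermt1* and *Mgp* are also high in basal cells, at 263 and 258 and at 334 and 293 unscaled CPM in NP, and the share of basal cells moved with stage as given below. *Nme2*, *Edn1* and *R3hdml* changed in the same direction in all 3 cell types, *Nme2* by -3.31, -3.22 and -3.03. *Sbp* stood at 0 and 0.597 unscaled CPM in hormone-sensing progenitors and at 0 in luminal progenitors of PI mice, and *Gm17416* had 0 UMIs in every PI sum. The labels name no batch.

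Against hormone-sensing progenitors, *Bglap3* (4.59, adjusted p = 1.3e-09) and *Epb41l3* (2.94, adjusted p = 4.2e-05) had more positive changes. *Tnfaip2*, a TNF-induced gene, went from 14.4 and 12.8 to 38.4 and 23 unscaled CPM in differentiated cells but from 190.0 and 335 to 125 and 62.1 in hormone-sensing progenitors (difference 2.64, SE 0.24, adjusted p = 4.5e-07). *Lhfp* and *Plekhb1* had differences of 1.84 and 1.60 (adjusted p = 0.0018 and 0.00012). *Calca* changed by -3.93 in differentiated cells and -5.52 in hormone-sensing progenitors, with a difference of 1.59 (adjusted p = 0.00035) that was not called by DESeq2, without the mouse as a term or with the replicate number in its place.

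Milk protein transcripts rose from a very low level. All 4 tested of 8 listed rose (median 3.90). *Csn1s1*, α-casein, was at 0.470 and 0.437 CPM in NP and 27.3 and 44.4 CPM in PI and rose by 6.33 (SE 0.33, adjusted p = 3.0e-07). *Csn2*, β-casein, reached 6.48 and 9.45 CPM (fitted rise 4.75, or 5.62 without NP replicate 2) and *Csn3*, κ-casein, 31.5 and 27.1 CPM in PI, and *Lalba* was not tested. In unscaled CPM, *Csn1s1* stood at 29.1 and 43.5 in the differentiated hormone-sensing cells of PI mice, at 44.8 and 70.5 in basal cells and 25.6 and 33.9 in non-epithelial cells of the same mice, and at 4939 and 5908 in luminal progenitors. The level in the hormone-sensing cells was below that in basal cells of the same PI mouse, where it rests on 5 and 20 UMIs (1 and 8 in non-epithelial cells), and the part of RNA from other cells in this level was not tested. Hormone-sensing progenitors held 2583 and 3138. The rise of *Csn1s1* was smaller than in hormone-sensing progenitors by 4.02 and than in luminal progenitors by 2.95 on the log2 scale (adjusted p = 0.00011 and 0.00028).

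Genes of lipid handling, lysosomes and the milk fat globule that the study named for luminal progenitors did not pass the test in differentiated hormone-sensing cells. The study also reported its lactation and immune gene sets as raised in hormone-sensing progenitors and, for some, in cluster C3. It found the effect strongest in progenitors. *Lipa*, lysosomal lipase, *Xdh*, xanthine dehydrogenase of the milk fat globule, *Cidea*, a lipid droplet protein, *Ctsc*, cathepsin C, *Tgfb3* and *Mfge8*, lactadherin, had log2 differences from -0.35 (*Ctsc*) to 0.51 (*Xdh*), against 2.02 (*Tgfb3*), 1.75 (*Mfge8*) and 3.49 (*Lipa*) in luminal progenitors, and *Cd36* was not tested. Of 20 milk fat genes tested, 6 rose and 0 fell (median 0.21). *Muc1*, the mucin of the apical membrane, was at 6.89 and 5.03 CPM in NP and 40.6 and 31.6 CPM in PI and rose by 2.57 (SE 0.21, adjusted p = 8.1e-06). *Plin2*, a coat protein of lipid droplets, *Scd1*, a fatty acid desaturase, and *Acly*, ATP citrate lyase, rose by 1.39, 1.10 and 0.79. In PI luminal progenitors *Muc1* stood at 142 and 125 unscaled CPM, above the 43.2 and 31.0 of the hormone-sensing cells and the 0 and 8.47 of non-epithelial cells.

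Of 22 involution and acute phase genes tested, 3 rose and 2 fell [2 and 1 without NP replicate 2, 5 and 3 without PI replicate 1, 4 and 1 by DESeq2] (median 0.01). Besides *Hp*, the leukaemia inhibitory factor receptor *Lifr* rose by 0.76 (adjusted p = 0.0056; log2 0.72, adjusted p = 0.052 without NP replicate 2), and *Spp1*, osteopontin, had 0 and 4 UMIs in NP and 27 and 166 in PI, or 7.60 and 10.9 CPM. *Hp* changed by 7.76 in luminal progenitors against 3.43 in differentiated hormone-sensing cells (adjusted p = 2.3e-12). In unscaled CPM, *Hp* stood at 943 and 1518 in the hormone-sensing cells of PI mice, 2085 and 3571 in luminal progenitors, 8.96 and 391 in basal cells and 25.6 and 59.3 in non-epithelial cells.

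More antigen presentation genes rose than fell, and more interferon-induced genes fell than rose. Of 22 antigen presentation genes tested, 9 rose and 1 fell [10 and 0 without NP replicate 1 or without PI replicate 2, median 1.02 without NP replicate 1] (median 0.61). *Psmb8*, an immunoproteasome subunit, was at 215 and 170.1 CPM in NP and 348 and 426 CPM in PI. *Tap2*, a subunit of the peptide transporter, was at 99.2 and 63.7 CPM in NP and 146 and 196 CPM in PI. Both were higher in each PI mouse and rose by 1.01 and 1.08 (adjusted p = 0.0027 and 0.0047). The class I genes *H2-Q7* and *H2-Q6* rose by 1.86 and 1.10, with the reservation that reads of these close paralogues can be split. The median change of the list was 0.64, 0.66 and 0.64 in differentiated cells, hormone-sensing progenitors and luminal progenitors, and of its 22 genes 4 changed more negatively and 2 more positively than in luminal progenitors, against 10.8% and 10.0% of all genes. Of 29 interferon response genes, 3 rose and 7 fell [0 and 4 without NP replicate 2, 1 and 6 without PI replicate 2, 2 and 3 by DESeq2, median -0.11 without PI replicate 2] (median -0.28). *Ly6a*, which encodes the surface antigen SCA-1, was at 901 and 765 CPM in NP and 199 and 408 CPM in PI and fell by 1.45 (SE 0.27, adjusted p = 0.0035), with a difference of -2.07 without PI replicate 2. *Rsad2*, *Rtp4* and *Ifit1* fell by 2.04, 1.60 and 2.68 from levels of 20.3 CPM or less (without PI replicate 2, *Rsad2* fell by 3.53 and *Ifit1* was not called, at log2 -1.16, adjusted p = 0.081; without PI replicate 1, *Ifit1* fell by 3.81). *Ido1*, which degrades tryptophan and was chosen after its values were seen, was at 163 and 99.9 CPM in NP and 298 and 888 CPM in PI and rose by 2.18 (adjusted p = 0.0024), with 1.18 without PI replicate 2. Of 15 secreted defence proteins, 3 rose and 6 fell [2 and 3 without NP replicate 2, by DESeq2 or with thinned cells, median -0.10 without NP replicate 1 and -0.30 without PI replicate 2] (median -0.98). The fallers included the complement protein *C3* (log2 -3.35, or -2.23 without PI replicate 2) and *Wfdc18*, and the risers *Ltf*, lactoferrin, at 8.85 and 5.90 CPM in NP and 31.0 and 16.9 CPM in PI.

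Of 23 cholesterol synthesis genes, 9 rose and 0 fell (median 0.48). The number that rose was 2 without NP replicate 2, 4 with thinned cells and 5 by DESeq2, and the median was 0.30 with thinned cells. *Pmvk*, phosphomevalonate kinase of sterol synthesis, was at 26.9 and 21.2 CPM in NP and 51.3 and 56.4 CPM in PI. It was higher in each PI mouse and rose by 1.17 (adjusted p = 0.0005). The medians of the list were 0.44, 0.11 and -0.24 in the 3 cell types. Of 25 genes of glutathione and oxidative defence, 9 rose and 1 fell [10 and 0 without NP replicate 1, 11 and 3 without PI replicate 1, 8 and 0 without PI replicate 2, 4 and 1 with thinned cells, median 0.20 without NP replicate 2] (median 0.43). *Gsta4*, a glutathione transferase, was at 49.5 and 58.3 CPM in NP and 199 and 226 CPM in PI and rose by 1.98 (SE 0.16, adjusted p = 8.3e-06). *Gclc*, which makes the first step of glutathione synthesis and was chosen after its values were seen, rose by 0.97, and *Hmox1*, haem oxygenase, by 1.55 with 141 CPM in PI replicate 1 against 52.3 in PI replicate 2 (0.73 without the first and 2.14 without the second).

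Both metallothioneins measured well fell in differentiated hormone-sensing cells. *Mt1* was at 3676 and 6557 CPM in NP and 2118 and 1881 CPM in PI, and *Mt2* at 1853 and 3422 CPM in NP and 1052 and 801 CPM in PI. NP replicate 2 was the highest in both. *Mt1* fell by 1.36 and *Mt2* by 1.51 (adjusted p = 0.0061 and 0.0033), whereas both changed in the other direction in luminal progenitors, by 1.52 and 1.61 (adjusted p of the difference 9.4e-13 and 5.5e-13). Of 10 metallothionein and zinc transporter genes tested, 1 rose (*Slc39a14*, log2 0.52, lost under the replicate block with adjusted p = 0.078 and without NP replicate 1, at log2 0.49, adjusted p = 0.25, NP replicate 2, at log2 0.57, adjusted p = 0.22, or PI replicate 2, at log2 0.52, adjusted p = 0.12) and 2 fell [0 and 2 without NP replicate 1, without NP replicate 2, by DESeq2 or with thinned cells, 2 and 2 without PI replicate 1] (median -0.05). Of 24 genes of hypoxia and glycolysis, 4 rose and 5 fell [2 and 3 without NP replicate 1, 1 and 4 without NP replicate 2, 8 and 5 without PI replicate 1, 1 and 3 with thinned cells] (median 0.02). *Hk2*, hexokinase, and *Ndrg1* fell by 1.05 and 0.98 and *Vegfa* rose by 0.95. *Hk2* and *Ndrg1* changed by 1.48 and 1.16 in luminal progenitors (adjusted p of the difference 7.7e-07 and 3.2e-09).

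In the TGF-β, BMP and activin list 2 of 23 rose and 1 fell [1 and 1 without NP replicate 1 or with thinned cells, 4 and 3 without PI replicate 1, 3 and 3 without PI replicate 2] (median -0.06). *Bmp3*, a BMP family member, was at 10.5 and 8.38 CPM in NP and 65.3 and 84.6 CPM in PI and rose by 3.01 (SE 0.19, adjusted p = 8.6e-07), and *Fst*, follistatin, fell by 1.62 (log2 -1.13, adjusted p = 0.13 without NP replicate 1, log2 -3.30, adjusted p = 0.00045 without PI replicate 2). In the insulin-like growth factor list 3 of 15 rose and 4 fell [2 and 2 without NP replicate 1 or without NP replicate 2, 2 and 1 without PI replicate 2, 1 and 2 by DESeq2, 1 and 1 with thinned cells] (median -0.18), with *Igfbp3* from 7.59 to 0.403 CPM on average (log2 -3.96, or -4.68 without PI replicate 2) and *Igfbp2* at 17 and 14 UMIs in NP and 0 in both PI mice, at least 7.18-fold lower with the same floor (not called without PI replicate 2, adjusted p = 0.1, and too low to be tested without NP replicate 1). In the Wnt and Notch list 1 of 20 rose and 7 fell [1 and 1 without NP replicate 2, 2 and 7 without PI replicate 1, 1 and 4 by DESeq2, 0 and 2 with thinned cells] (median -0.20), the Wnt ligands above included. Of 19 cell division genes 0 rose and 5 fell [0 and 9 without NP replicate 1 or without PI replicate 1, 0 and 3 without NP replicate 2 or with thinned cells, median -1.27 without NP replicate 1, -0.41 without NP replicate 2 and -0.48 with thinned cells] (median -0.83). *H2afz*, a histone variant, fell by 1.16 from 91.6 to 41.0 CPM. Of 28 immediate early and dissociation stress genes 1 rose and 5 fell [2 and 4 without NP replicate 1, 1 and 3 without NP replicate 2, 2 and 6 without PI replicate 1, 4 and 6 without PI replicate 2, 0 and 6 with thinned cells] (median -0.01). *Ier3* was at 387 and 369 CPM in NP and 184 and 222 CPM in PI and *Jun* at 1695 and 2039 CPM in NP and 866 and 1183 CPM in PI. They fell by 0.89 and 0.86 (*Jun* was not called without NP replicate 2, log2 -0.73, adjusted p = 0.091, or PI replicate 1, log2 -0.65, adjusted p = 0.063). In the list of folding and stress genes of the endoplasmic reticulum 4 of 25 rose and 1 fell [1 and 1 without NP replicate 2, 7 and 1 without PI replicate 1, 4 and 2 without PI replicate 2] (median 0.11). In prostaglandin and steroid metabolism 1 of 10 rose and 1 fell [0 and 1 without NP replicate 1 or with thinned cells, 0 and 0 without NP replicate 2 or without PI replicate 2, 3 and 1 without PI replicate 1] (median 0.06). Of 21 keratins and claudins 3 rose and 5 fell [6 and 5 by DESeq2] (median -0.16). The risers included *Prom1*, prominin-1, which is neither a keratin nor a claudin and is also among the hormone-sensing markers. It was at 82.4 and 73.9 CPM in NP and 241 and 246 CPM in PI (log2 1.64, adjusted p = 2.4e-05).

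Transcripts of cytosolic ribosomal proteins were lower in PI. Of 81 tested, 27 fell and 0 rose, with a median of -0.62, and the 84 listed genes summed to 269513 and 307895 unscaled CPM in NP against 194456 and 214055 in PI. The number that fell was 4 without NP replicate 2, 15 without PI replicate 2, 49 by DESeq2 and 31 with scaling by total UMIs. The median change was -0.59 in differentiated hormone-sensing cells, -0.38 in hormone-sensing progenitors and -0.14 in luminal progenitors, and 63 of 81 changed more negatively in differentiated cells than in luminal progenitors. Many of these genes have processed copies, so single members such as *Rpl27* (-1.23) are uncertain. Nuclear genes of oxidative phosphorylation gave 4 risers and 3 fallers of 76 [0 and 2 without NP replicate 2, 14 and 5 without PI replicate 1, 2 and 3 with thinned cells] (median 0.19). Those of mitochondrial DNA gave 0 risers and 2 fallers of 10 [0 and 4 without NP replicate 1 or without PI replicate 1, 0 and 1 without NP replicate 2, without PI replicate 2, by DESeq2 or with thinned cells, median -0.51 without NP replicate 1, -0.12 without NP replicate 2, -0.12 without PI replicate 2 and -0.07 with thinned cells] (median -0.32). Depth per cell moved with stage too, and with cells thinned to 2000 UMIs the ribosomal count was 27 and the median -0.64.

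**Figure D5:**
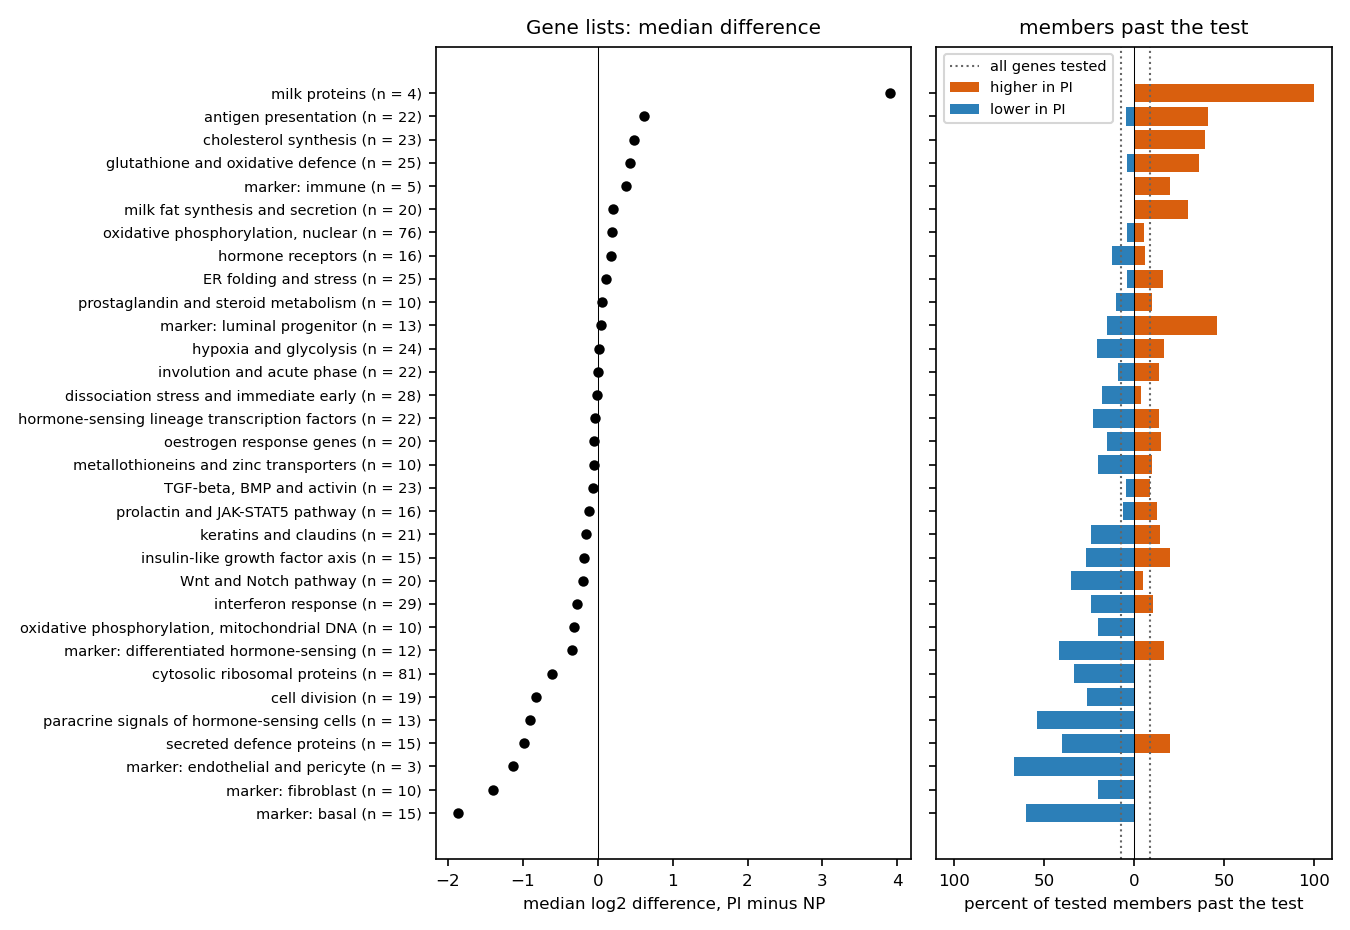
Left, median log2 difference, PI minus NP, of the tested members of each gene list in differentiated hormone-sensing cells (number tested in brackets); right, percent of these members past the test, higher in PI (orange) or lower (blue), with the percent of all genes tested as dotted lines (8.54 and 7.54). Milk proteins lie highest at 3.90, and basal markers lowest at -1.87.

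Markers of other cell types moved with stage. Of 15 basal markers tested out of 16, 9 fell and 0 rose (median -1.87, and -1.23 without NP replicate 1). *Acta2*, smooth muscle actin, was at 60.7 and 30.1 CPM in NP and 1.69 and 8.73 CPM in PI, *Krt17*, a basal keratin, at 74.1 and 39.1 CPM in NP and 6.76 and 9.71 CPM in PI and *Krt14* at 45.7 and 17.5 CPM in NP and 5.07 and 7.88 CPM in PI. They fell by 2.76, 2.68 and 2.16, and without PI replicate 2 *Acta2* by 4.73. *Krt14* fell by 1.32 without NP replicate 1. *Tpm2*, a tropomyosin, fell by 2.46, with a difference of -3.06 without PI replicate 2. Summed over the 16 markers the level was 358 and 183 unscaled CPM in NP and 67.8 and 75.6 in PI, with 1 marker at 0 in each PI mouse, while basal cells of the same libraries held 28165 and 28714 in NP and 25993 and 24114 in PI. Basal cells of cluster C12 were 23.7% and 14.2% of epithelial cells in NP and 1.88% and 1.28% in PI. In luminal progenitors the sum was 486 and 289 in NP and 138 and 388 in PI. The part of basal RNA in the falls of *Acta2*, *Krt17*, *Tpm2*, *Fermt1* and *Mgp* was not tested.

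Of 13 luminal progenitor markers tested out of 16, 6 rose and 2 fell [6 and 1 without NP replicate 1, 4 and 1 without NP replicate 2, 5 and 1 without PI replicate 2] (median 0.04). The sum of the 16 markers was 594 and 379.6 unscaled CPM in NP and 779.5 and 677 in PI. *Aldh1a3*, 1 of the 2 that fell, fell by 4.62, while *Csn3*, *Ltf*, *Folr1* and *Trf* rose by 1.30, 1.60, 1.84 and 1.51. Luminal progenitors themselves summed to 15569 and 16957 in NP and 48107 and 45961 in PI, and their part in these rises was not tested. Medians of the next 3 lists rest on few UMIs and moved by over 1.5 times with the library left out. Fibroblast markers summed to 3.90 to 36.3 unscaled CPM and 2 of 10 fell [0 and 5 without NP replicate 1 or without PI replicate 2, 0 and 1 without NP replicate 2, 0 and 0 with thinned cells] (*Postn*, with 0 and 8 UMIs in PI, and *Col3a1*, not called without NP replicate 2 at log2 -1.82, adjusted p = 0.32; median -1.40), with 8 of 12 at 0 in PI replicate 1. Endothelial and pericyte markers summed to 13.9 to 35.5 and 2 of 3 tested fell [0 and 1 with thinned cells] (*Flt1*, with 0 and 3 UMIs in PI, and *Eng* by 1.13; median -1.13), with 12 of 13 at 0 in PI replicate 1. Immune markers summed to 6.2 to 14.0, with 2 to 7 of 16 at 0, and 1 of 5 tested rose [0 and 0 without NP replicate 2, without PI replicate 2, by DESeq2 or with thinned cells] (*Lyz2*, at 3.68 CPM or less, not called without NP replicate 2 or PI replicate 2, adjusted p = 0.18 and 0.72). Among the 12 hormone-sensing markers themselves 2 rose (*Cited1* and *Prom1*) and 5 fell (*Areg*, *Tnfsf11*, *Ly6a*, *Esr1* and *Wnt4*) [1 and 4 without NP replicate 2 or by DESeq2, 1 and 6 without PI replicate 1, 2 and 3 with thinned cells, median -0.20 with thinned cells], with a median of -0.35.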

How the data were processed

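EpCAM+ mammary cells of 8 mice, 1 mouse per library, were profiled by droplet single-cell RNA sequencing (10x Chromium), and 4 of these libraries enter here. Per the file headers and the study's methods, the deposited UMI counts per gene and cell were made by the authors with Cell Ranger and the aligner STAR on build mm10 (versions not given in the sources used here) and pooled without depth normalisation. The authors also deposited quality flags, clusters and the fraction of mitochondrial UMIs per cell, whose median in these cells was 0.760% to 0.914%. They removed barcodes shared between libraries, of which 0 remained among the cells used, and a cluster of doublets, so no doublet caller was run. The pooled copy of the counts was not used.

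Counts were summed over the cells of a library and tested with edgeR 4.0.16 in R 4.3.3 (quasi-likelihood, TMM factors, filterByExpr with a minimum count of 10 and a total of 15, Benjamini-Hochberg threshold 0.05). Groups came from the library labels, and the oestrous phase from the study's text. The comparison of cell types was fitted over 12 sums with the mouse as a term. DESeq2 1.42.0, other scalings, filters and cell sets, and each library left out served as alternatives. Library totals over the cells used were 3334145 to 15535856 UMIs. The simulations that follow gave every gene the same spread between sums (dispersion 0.0158, that of the fit of PI against NP). Recovery of genes with a larger or smaller spread was not tested. The sums were drawn independently from 1 pooled profile, without effects of mouse or cell type. Recovery in the presence of such effects was not tested either. On simulated counts for 11789 genes, 73 of 100 genes changed by 1 on the log2 scale and 97 of 100 changed by 2 were recovered, with 5 false among 175 calls. For the difference between cell types, over 10489 genes, 184 of 200 (luminal progenitors, 16 false calls) and 186 of 200 (hormone-sensing progenitors, 13 false calls) changed by 2 were recovered.

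The cells, the 32 gene lists and the tests were chosen with earlier results of these data known. Named genes are the 15 largest rises and falls with 20 CPM or more in a group and no overlap, the 6 largest differences in each direction between cell types, up to 4 called members of a list, all receptor and paracrine genes, and genes named in the study's text. Others are said to be chosen after their values were seen. Results for some genes are not reported here.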

Additional observations from a re-analysis of the deposited data

Results flagged for a closer look

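The genes below changed from NP to PI by different amounts in 2 cell types of the same mice by edgeR's test of the difference itself. Against luminal progenitors, the change in differentiated hormone-sensing cells was more positive, on the log2 scale, by 7.56 for *Epb41l3*, 7.52 for *Bglap3*, 7.14 for *Chst1*, 5.08 for *Emb*, 5.06 for *Car8* and 4.75 for *Slc38a1*. It was more negative for *Fermt1* (-5.79), *Csn1s2a* (-5.09) and *Slc39a8*, a zinc transporter (-4.69). *Saa1*, an acute phase protein, *Csn2* and *Pkib*, an inhibitor of protein kinase A, also changed more negatively (adjusted p = 0.00154, 7.61e-06 and 0.00253), with 1 group at 3 UMIs or fewer in a cell type, so that no difference is given.

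Against hormone-sensing progenitors, the change was more positive by 4.59 for *Bglap3*, 2.94 for *Epb41l3*, 2.64 for *Tnfaip2*, 1.84 for *Lhfp*, 1.60 for *Plekhb1* and 1.59 for *Calca*. It was more negative for *Csn1s2a* (-6.66), *Fabp4*, a fatty acid binding protein (-4.18), *Wfdc3* (-4.12) and *Csn1s1* (-4.02), and for *Slc39a8* and *Csn2* (adjusted p = 0.00603 and 7.31e-05), again with a group at 3 UMIs or fewer. *Fabp4* stood at 3507 and 1744 unscaled CPM in non-epithelial cells of NP and had 24 and 6 UMIs in hormone-sensing progenitors of NP mice and 1 and 242 in those of PI mice, so that the PI level there lay in PI replicate 2. *Csn1s1* and *Csn2* in differentiated hormone-sensing cells of PI mice were at or below those of basal cells.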

How the results depend on the processing

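Of 1813 values under the alternatives of the 145 named genes that passed the test, 1601 kept their direction and side of the threshold, 212 kept their direction and lost the threshold, and 0 reversed. Of 357 values of the 29 named genes tested that did not pass, 29 had the other sign and 21 passed, among them those of *Calca*. The main counts of genes higher and lower in PI (1021 and 902) were 89 and 54 with a test against a log2 change of 1, 496 and 444 with thinned cells, and 495 lower by DESeq2. They ranged from 437 to 1523 and from 429 to 1334 when 1 library was left out, with the lowest values without NP replicate 2 and the highest without PI replicate 1. Against luminal progenitors, the genes with a more positive and more negative change (1179 and 1269) were 509 and 616 by DESeq2, 605 and 592 without the mouse as a term, and ranged from 479 to 1110 and from 614 to 1342 with 1 library left out. Against hormone-sensing progenitors (144 and 352) they were 26 and 204 by DESeq2, 18 and 105 without the mouse term, and 20 to 181 and 156 to 371 with 1 library left out. The cause of these changes was not tested. With a replicate block the counts of PI against NP were 965 and 924, and with the block in place of the mouse they were 771 and 811 against luminal progenitors and 28 and 164 against hormone-sensing progenitors. The labels do not say whether the replicate numbers pair the mice. The deviations of replicates 1 from their group means had a correlation of -0.015 over 11956 genes. A value over all genes cannot show whether some of them shared an effect of the replicate number. The block ended 1 call among the named genes, that of *Slc39a14*.

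The share of differentiated hormone-sensing cells was 45.7% and 61.0% of all epithelial cells in NP, and 32.1% and 63.2% of luminal cells in PI with C3 and C4 together. Without thinning, the share of cells with a UMI in NP replicates 1 and 2 and PI replicates 1 and 2 was 97.6%, 98.3%, 65.5% and 77.5% for *Areg*, 4.84%, 4.46%, 54.9% and 41.7% for *Tmprss6*, 43.7%, 42.4%, 75.7% and 71.4% for *Socs2*, and 7.62%, 5.12%, 16.5% and 53.3% for *Aoc1*. Depth is lowest in PI replicate 1, with 3334145 UMIs over 412 cells, so 0 UMIs there says least about a transcript.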
